A study of Saccharomyces cerevisiae with 54 samples.

Results

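*RNR1*, *RNR2*, *RNR3*, *RNR4*, *HUG1* and *RFX1* are genes of deoxynucleotide supply and of the response to DNA damage in *S. cerevisiae*. They were located by symbol in the R64 gene table, as a set that includes targets of the Rfx1–Tup1 repressor, and all 6 were found among its 6002 nuclear protein-coding genes. *RNR1* (YER070W) lies on the plus strand of chromosome V at 298950–301616, *RNR2* (YJL026W) on the plus strand of chromosome X at 392404–393603, and *HUG1* (YML058W-A) on the plus strand of chromosome XIII at 158760–158966. *RNR3* (YIL066C) lies on the minus strand of chromosome IX at 238099–240708, *RNR4* (YGR180C) on the minus strand of chromosome VII at 855264–856301, and *RFX1* (YLR176C) on the minus strand of chromosome XII at 507797–510232. These are coding regions of 2667 bp for *RNR1*, 1200 bp for *RNR2*, 2610 bp for *RNR3*, 1038 bp for *RNR4*, 207 bp for *HUG1* and 2436 bp for *RFX1*.

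Ribonucleotide reductase converts ribonucleotides to the deoxynucleotides from which DNA is made. *RNR1* and *RNR3* encode its large subunits, Rnr1 being the one used in dividing cells and Rnr3 the one induced by damage, while *RNR2* and *RNR4* encode the small subunits. Rfx1, also called Crt1, binds DNA upstream of *RNR2*, *RNR3*, *RNR4*, *HUG1* and its own gene, and recruits the Tup1–Cyc8 corepressor there. The Mec1–Rad53–Dun1 checkpoint kinases relieve this repression when DNA is damaged, whereas *RNR1* is known mainly for its cell cycle control by MBF. *HUG1* encodes a small protein that is strongly induced by damage and binds the reductase. Hda1 is the catalytic subunit of the histone deacetylase complex Hda1C, which is known to act with Tup1.

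Acetylated histones H3 and H4 were mapped by ChIP-seq in *hda1∆* cells (labelled hda1-/-), *tup1∆* cells (labelled tup1-/-) and wild-type cells. The myc tag was mapped in cells with Hda1-myc from which the Arb2 domain had been deleted at the genomic *HDA1* locus (here Hda1(∆Arb2)-myc), in cells with full-length Hda1-myc, which has an 18-myc tag at its C-terminus, and in untagged cells without a tag on Hda1. All strains were grown in YPD at 30 °C, with no DNA damaging agent named in the labels. By label, some libraries received *S. pombe* chromatin as a spike-in and others did not, and these are kept apart here as the spike-in set and the set without spike-in. H3 acetylation is in the set without spike-in only, and each strain and antibody has 2 libraries per set.

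Each library came as a list of peaks, so the measure for each gene was its peak coverage, the percentage of the bases of its coding region, or of the 1000 bp upstream of it, that lay under peaks. A gene was called gained when each library of the first-named strain exceeded each library of the strain it was set against by 10 percentage points or more, and lost when each fell short by as much. With 2 libraries against 2, an exact two-sided permutation test cannot give a p below 0.33, so no p is given. The lists hold no read counts, the depth of each library is therefore unknown, and a gene without a peak is a gene without a called peak and not one without acetylation. Coverage tells where peaks were called and not how high they were. The comparisons ask how acetylation at each gene differed without Hda1 or Tup1, and whether Hda1 was found there with and without its Arb2 domain.

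The 18 acetylation lists held 2191 to 3197 peaks, and the 2 libraries of a strain and antibody shared 81.5% to 90.4% of the bases covered by either. *HDA1* itself had no peak over its coding region in any *hda1∆* library, against 9.81% to 19.1% in wild-type libraries, and *TUP1* had none in any *tup1∆* H4 acetylation library, against 2.66% to 7.28% in wild-type libraries. Among the anti-myc lists, library 2 of Hda1(∆Arb2)-myc in the spike-in set stood apart with 59 peaks, against 628 in library 1, and shared 9.58% of the covered bases with it. Library 1 of the untagged cells in the spike-in set stood apart with 235 peaks, against 10 in library 2, and shared 5.20%. Each comparison with these libraries is given with and without them where that matters.

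For H3 acetylation over the coding region, 2 of the 6 genes were gained in *hda1∆*, *RNR2* and *RNR3*, where 11.3% of all genes were gained, and none was lost, where 2.65% of all genes were lost. In *tup1∆* none was gained (10.3% of all genes) and none lost (4.97%). Over the 1000 bp upstream, *RNR2* and *RNR3* were gained in *hda1∆* (10.5% of all genes) and none was lost (5.71%). In *tup1∆*, *RNR2*, *RNR3* and *RFX1* were gained upstream (12.2%) and none was lost (7.21%). H3 acetylation thus changed at up to 3 of the 6 genes, each time as a gain. Wild-type libraries had no H3 acetylation peak over any of the 6 upstream windows, and over the coding regions only at *RNR1*. A loss could therefore have been called only over the *RNR1* coding region.

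H4 acetylation over the coding region changed in *tup1∆* at 3 of the 6 genes, in both sets and in both directions. *HUG1* was gained in the set without spike-in, where 8.23% of all genes were gained, and in the spike-in set, where 7.66% were. *RNR2* and *RNR3* were lost in the set without spike-in (5.33% of all genes) and in the spike-in set (5.48%). In *hda1∆* none of the 6 was gained over the coding region in the set without spike-in (4.42%) or the spike-in set (4.27%). *RNR2* was the only one of the 6 lost in *hda1∆*, and in the spike-in set only (10.9% of all genes), with none lost in the set without spike-in (12%).

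Upstream, H4 acetylation was gained in *tup1∆* at *RNR3* and *HUG1* in the spike-in set (11.2% of all genes) and at none of the 6 in the set without spike-in (11.6%). None of the 6 was lost upstream in *tup1∆* in the set without spike-in (4.53%) or in the spike-in set (4.73%). In *hda1∆* none was gained upstream in the set without spike-in (2.83%) or in the spike-in set (2.77%), and none was lost there (15.3% and 13.4%).

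**Figure D1:**
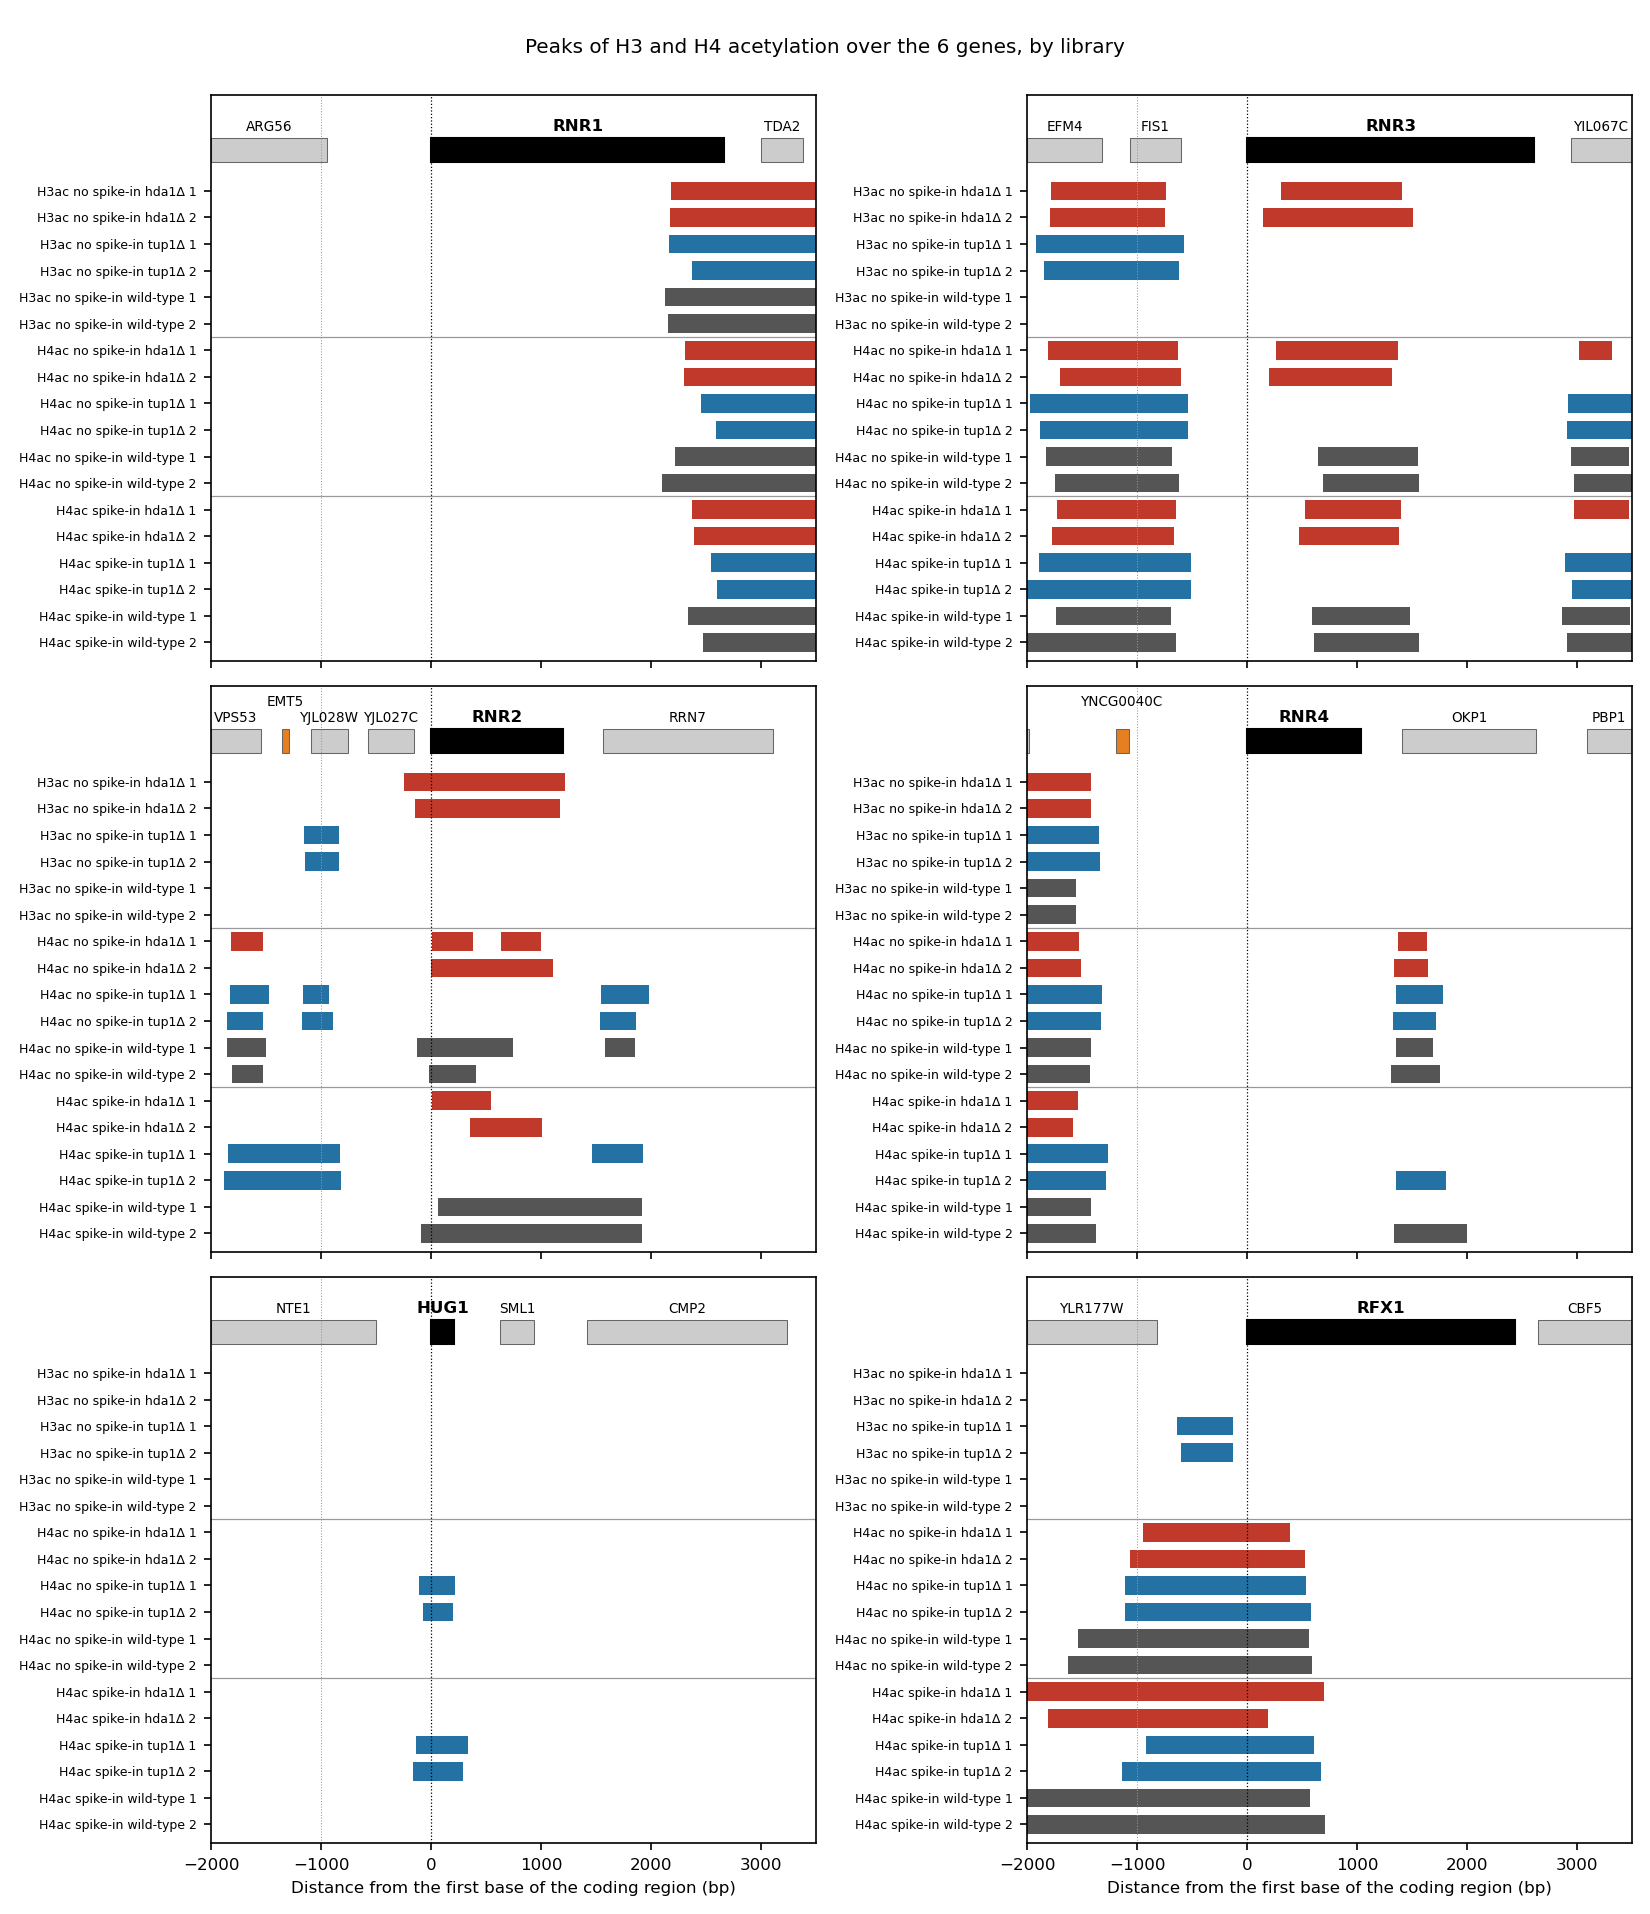
Acetylation peaks in each of the 18 libraries over the 6 genes, against the distance in bp from the first base of the coding region, in the direction of transcription. Each bar is a called peak, coloured red for *hda1∆*, blue for *tup1∆* and dark gray for wild-type cells. Peaks wholly more than 1000 bp past the end of a gene, or near the upstream edge of a panel, were not drawn. An empty stretch there is therefore not one without peaks. The black box is the gene, gray boxes are neighbouring coding regions, orange boxes are tRNA genes, and the dotted lines mark the first base of the gene and 1000 bp upstream of it. *HUG1* has peaks in the 4 *tup1∆* H4 acetylation libraries only, and *RNR4* has none over it in any library. The peaks within *RNR2* and *RNR3* are missing from every *tup1∆* library, and for H3 acetylation from the wild-type libraries also.

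*RNR3*, the damage-induced large subunit gene, had an H4 acetylation peak inside its coding region in *hda1∆* and wild-type cells and none in *tup1∆* cells. In the set without spike-in, the coding region was covered to 42.6% and 42.6% in *hda1∆*, 0% and 0% in *tup1∆*, and 35% and 33.4% in wild-type cells. In the spike-in set it was covered to 33.4% and 34.7% in *hda1∆*, 0% and 0% in *tup1∆*, and 33.9% and 36.5% in wild-type cells. All 4 *tup1∆* libraries were thus below all wild-type libraries, and the mean difference of *tup1∆* from wild-type was −34.2 points without spike-in and −35.2 points with it. The *hda1∆* and wild-type libraries overlapped in the spike-in set and lay within 10 points of each other in the other set.

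H3 acetylation of the *RNR3* coding region was gained in *hda1∆*. It was covered to 42.3% and 52.3% in *hda1∆*, 0% and 0% in *tup1∆*, and 0% and 0% in wild-type cells, a gain of 47.3 points in *hda1∆* that was matched or passed by 4.40% of all genes. The H3 acetylation peak of *hda1∆* cells spanned positions 307–1409 and 143–1506 of the gene, counted from the first base of the coding region. The H4 acetylation peak of *hda1∆* cells began at positions 260 and 202 without spike-in and 527 and 474 with it, against 641 and 688, and 592 and 609, in wild-type cells. In *hda1∆* it ended at positions 1370 and 1314 without spike-in and 1399 and 1379 with it. In wild-type cells it ended at 1554 and 1559, and 1477 and 1561. Both ends were therefore nearer the start codon in every *hda1∆* library than in any wild-type library of its set. This comparison was chosen after the values were seen.

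Upstream of *RNR3*, a peak over *FIS1*, the next gene on that side, reached into the 1000 bp window. On its far side the same peak reached into *EFM4*, whose coding region lies 2008 to 1319 bp upstream of *RNR3*. *FIS1* encodes a mitochondrial fission factor, and its coding region ends at 600 bp upstream of *RNR3*, so that 401 bp of the window belong to it. H3 acetylation covered 26.5% and 25.5% of the window in *hda1∆*, 42.3% and 38.5% in *tup1∆*, and 0% and 0% in wild-type cells. With the window cut to 400 bp, or to its part outside other coding regions, neither gain of H3 acetylation was called, so both lay mostly over *FIS1*. H4 acetylation covered 37.2% and 39.9% of the window in *hda1∆*, 46.4% and 46.2% in *tup1∆*, and 31.9% and 37.8% in wild-type cells without spike-in. With spike-in it covered 35.2% and 33.3% in *hda1∆*, 48.7% and 49.1% in *tup1∆*, and 31.2% and 35.6% in wild-type cells. The *tup1∆* libraries were the highest in both sets, and the gain called in the spike-in set was not called within 400 bp. In the part of the window outside other coding regions, however, a gain of H4 acetylation in *tup1∆* was called in both sets.

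The H4 acetylation peak came closer to *RNR3* in *tup1∆* cells than in the other strains. Without spike-in its near edge lay 629 and 602 bp upstream of the coding region in *hda1∆*, 537 and 539 bp in *tup1∆*, and 682 and 623 bp in wild-type cells. With spike-in it lay 649 and 668 bp upstream in *hda1∆*, 514 and 510 bp in *tup1∆*, and 689 and 645 bp in wild-type cells. The fold enrichment of that peak ranked at percentiles 92.0, 93.5, 88.9 and 88.1 of the peaks of its own library in the 4 *tup1∆* libraries, against 68.0, 58.9, 51.6 and 42.3 in the 4 *hda1∆* libraries and 44.9, 44.0, 20.1 and 67.3 in the 4 wild-type libraries. The peak also reached into *EFM4* in every library, so that no rank is that of *FIS1* alone. In library 2 of wild-type cells with spike-in it was part of a peak of 4337 bp with its summit 2930 bp upstream. In library 2 of *tup1∆* with spike-in it was part of one of 7078 bp with its summit 877 bp upstream. In *tup1∆* cells *RNR3* thus had a peak upstream that ranked high in its library and no peak within the gene, in H3 and H4 acetylation alike. For H3 acetylation, wild-type cells had no peak within the gene either.

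*RNR2*, a small subunit gene, had the largest gain of H3 acetylation in *hda1∆* among the 6 genes. Its coding region was covered to 100% and 97.9% in *hda1∆*, 0% and 0% in *tup1∆*, and 0% and 0% in wild-type cells, and a gain of at least these 99.0 points was found at 54 genes, 0.900% of all, with *RNR2* among them. Over all genes, 64 had no H3 acetylation peak in either wild-type library and at least 90% coverage in both *hda1∆* libraries, and *RNR2* was the only one of the 6 among them. That pattern is the one of *RNR2* itself, so the count is a description and not a test. The peak began 244 and 144 bp upstream of the coding region, so the window upstream was also gained, at 24.4% and 14.4% in *hda1∆* against 0% and 0% in wild-type cells.

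H4 acetylation of *RNR2* was lost in *tup1∆* in both sets. Coverage was 60.8% and 92.2% in *hda1∆*, 0% and 0% in *tup1∆*, and 62.0% and 34.2% in wild-type cells without spike-in. It was 45.3% and 54.8% in *hda1∆*, 0% and 0% in *tup1∆*, and 95.2% and 100% in wild-type cells with spike-in. The difference of *tup1∆* from wild-type was −48.1 points without spike-in and −97.6 points with it, and in the spike-in set only 17 genes, 0.283% of all, *RNR2* included, lost as much. The wild-type peaks over its coding region ranked at percentiles 10.8 and 6.34 of the peaks of their own library by fold enrichment in the spike-in set and at 39.8 and 34.8 in the other set.

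The comparison of *hda1∆* with wild-type cells at *RNR2* differed between the H4 acetylation sets. The spike-in set gave a loss of 47.5 points, while in the set without spike-in *hda1∆* was 28.4 points higher on average with overlapping libraries, and was called gained once library 1 of *hda1∆*, or library 1 of wild-type cells, was left out. When peaks were taken in order of their q-value up to an equal covered length in all libraries, the spike-in difference turned to 50.1 points higher in *hda1∆*. The loss of H4 acetylation in *tup1∆* and the gain of H3 acetylation in *hda1∆* at *RNR2* were called under every such setting. A separate peak over YJL028W, a coding region 758 to 1093 bp upstream of *RNR2*, gave the upstream gain of H3 acetylation in *tup1∆*, at 16.1% and 16.1% of the window, against 0% and 0% in wild-type cells, and this gain was not called within 400 bp.

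The same 2 genes therefore combined a gain of H3 acetylation in *hda1∆* with a loss of H4 acetylation in *tup1∆* in both sets, as did 66 genes in all, 1.10% of the 6002. *RNR2* and *RNR3* were also among the 34 genes, 0.566%, with no H4 acetylation peak over the coding region in the 4 *tup1∆* libraries and at least a part covered in all 4 *hda1∆* and all 4 wild-type libraries. All these comparisons share the same wild-type libraries within a set. Both patterns were put together after the values of these genes were known.

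**Figure D2:**
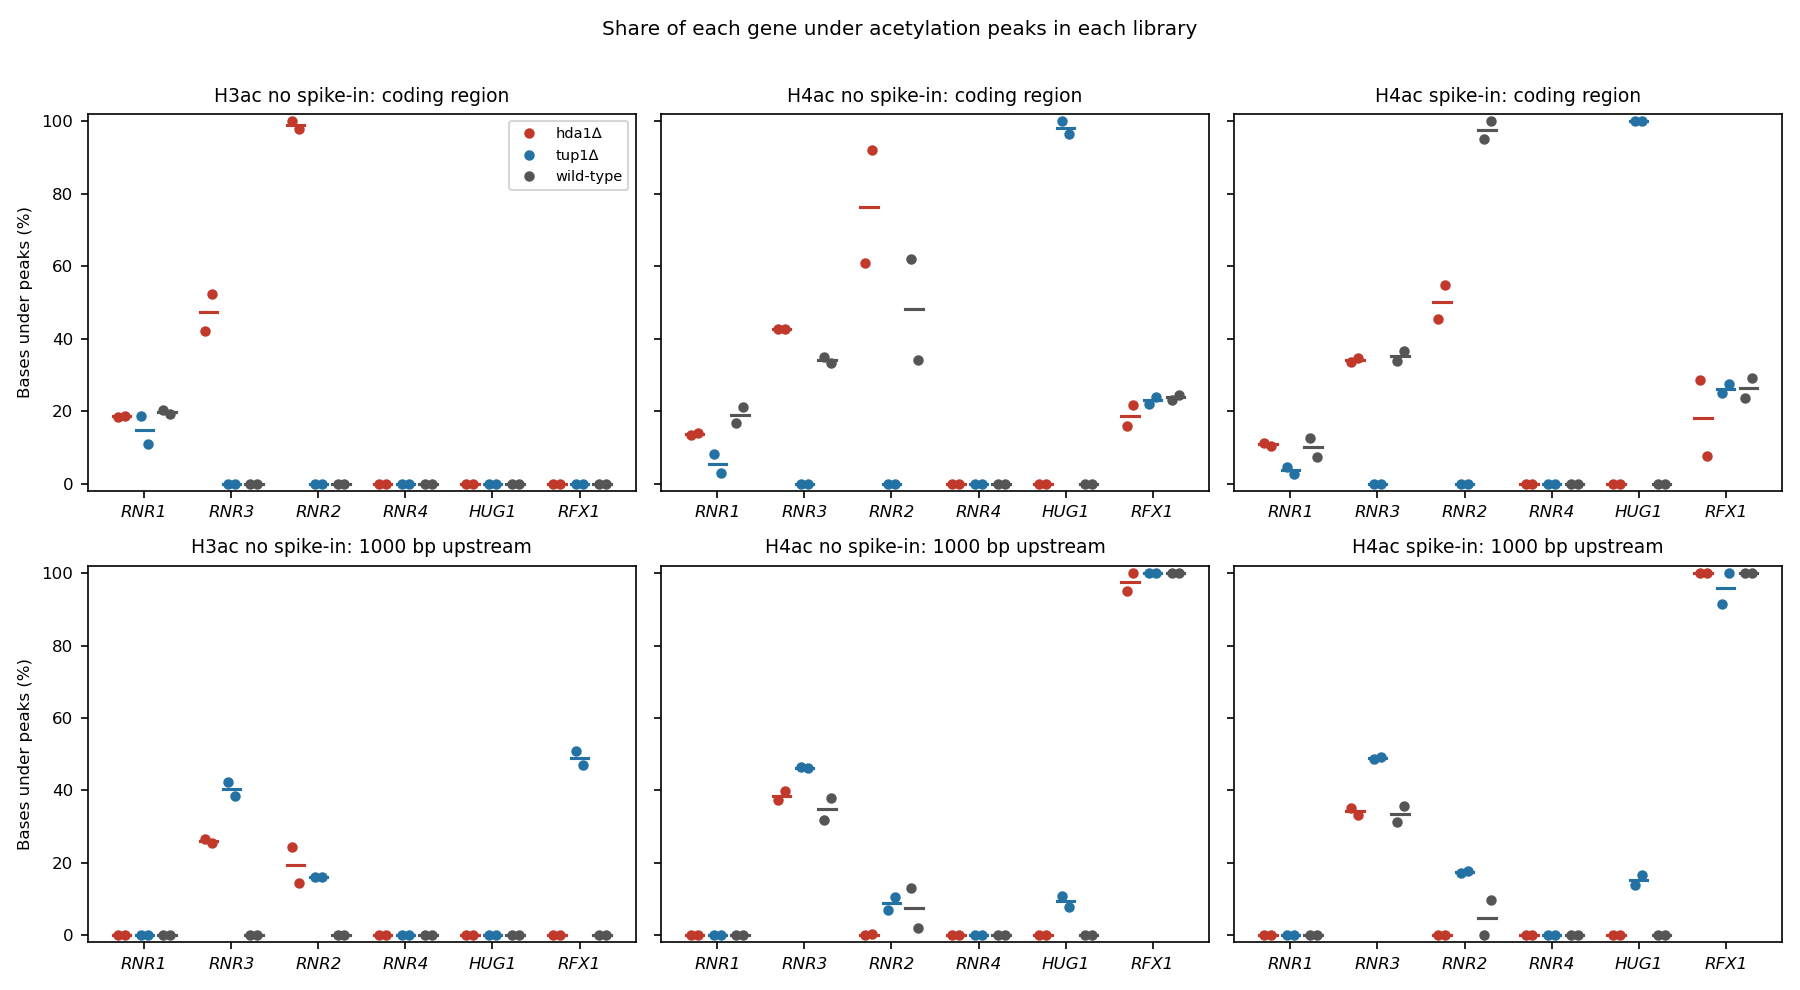
Peak coverage of the coding region (top) and of the 1000 bp upstream (bottom) of the 6 genes in percent, for H3 acetylation and the H4 acetylation sets. Each point is 1 library and each line the mean of 2, in *hda1∆* (red), *tup1∆* (blue) and wild-type cells (dark gray). In H3 acetylation *RNR2* stands at 100% and 97.9% in *hda1∆*, against 0% in wild-type cells, and in H4 acetylation *HUG1* stands at 96.6% to 100% in *tup1∆*, against 0% in wild-type cells.

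*RNR1*, the large subunit gene of dividing cells, had no acetylation peak within 1000 bp upstream in any of the 18 libraries, and none began before position 2101 of the gene. A single peak covered the end of the gene and ran on over *TDA2* and *VTC1*. For H3 acetylation, coverage of the coding region was 18.4% and 18.6% in *hda1∆*, 18.8% and 11% in *tup1∆*, and 20.2% and 19.3% in wild-type cells. For H4 acetylation it was 13.4% and 13.9% in *hda1∆*, 8.10% and 2.85% in *tup1∆*, and 16.7% and 21.3% in wild-type cells without spike-in. With spike-in it was 11.1% and 10.5% in *hda1∆*, 4.57% and 2.66% in *tup1∆*, and 12.6% and 7.39% in wild-type cells. The *tup1∆* libraries were the lowest in both H4 acetylation sets, with mean differences of −13.5 and −6.36 points, and neither difference met the rule for a loss.

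*RNR4*, the other small subunit gene, had no acetylation peak over its coding region or the 1000 bp upstream in any of the 18 libraries. In this it was like 630 of the 6002 genes (10.5%) for the coding region and 498 (8.30%) for the upstream window. Its window upstream holds no other coding region. The nearest peaks were over *OKP1*, beyond its 3′ end, and beyond a tRNA gene upstream, and none of the differences between strains could be measured at *RNR4* itself.

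*HUG1* had a called H4 acetylation peak in *tup1∆* cells only. Its coding region was covered to 100% and 96.6% in *tup1∆* without spike-in and 100% and 100% with it, against 0% in every *hda1∆* and every wild-type library of both sets. No library of H3 acetylation had a peak over it, and over all genes 19 (0.317%) had peaks in the 4 *tup1∆* H4 acetylation libraries and in none of the other 14 acetylation libraries, of which 3 reached at least 90% in those 4. This pattern is that of *HUG1* itself, so its share is a description and not a test. The peak was short, at positions 158651–158973 and 158682–158959 of chromosome XIII without spike-in and 158621–159090 and 158593–159046 with it. Its summit lay at positions 41 and 40, and 61 and 88, of the gene, just inside the coding region.

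*HUG1* is short enough for 1 small peak to cover it. The peak extended 109 and 78 bp upstream of the coding region in the set without spike-in and 139 and 167 bp in the spike-in set, and it ended before the neighbouring *SML1*. Upstream coverage was 10.9% and 7.80% in *tup1∆* without spike-in and 13.9% and 16.7% with it, against 0% in wild-type cells, so that only the spike-in set passed the margin of 10 points. By fold enrichment the peak ranked at percentiles 30.7 and 20.2, and 33.3 and 33.7, of the peaks of its own library. *SML1* encodes an inhibitor of ribonucleotide reductase. Its own upstream window takes in the same peak and was gained in *tup1∆*, at 32.3% and 27.8% without spike-in and 47.0% and 45.4% with it, against 0% in wild-type cells.

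*RFX1*, the gene of the repressor, shared its upstream region with the divergent YLR177W, whose coding region starts 822 bp away. H4 acetylation covered that region in every strain, at 95.1% and 100% in *hda1∆*, 100% and 100% in *tup1∆*, and 100% and 100% in wild-type cells without spike-in, and at 100% and 100% in *hda1∆*, 91.6% and 100% in *tup1∆*, and 100% and 100% in wild-type cells with it. H3 acetylation peaks were called there in *tup1∆* only, at 0% and 0% in *hda1∆*, 50.9% and 47.0% in *tup1∆*, and 0% and 0% in wild-type cells. The H3 acetylation peak of *tup1∆* cells lay 636 to 128 and 599 to 130 bp upstream, between the divergent coding regions. This gain of 49.0 points was matched or passed by 4.27% of all genes, and it was called within 400 bp and outside other coding regions as well.

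Within the coding region of *RFX1*, H4 acetylation coverage stayed at the 5′ end. It was 15.8% and 21.6% in *hda1∆*, 22.0% and 23.9% in *tup1∆*, and 23.2% and 24.3% in wild-type cells without spike-in. With spike-in it was 28.7% and 7.72% in *hda1∆*, 24.9% and 27.5% in *tup1∆*, and 23.5% and 29.2% in wild-type cells. The strains overlapped in the spike-in set, and no difference met the rule in either set. Over all genes, 898 (15.0%) were covered to at least 90% upstream in all 12 H4 acetylation libraries, and *RFX1* was the only one of the 6 among them.

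**Figure D3:**
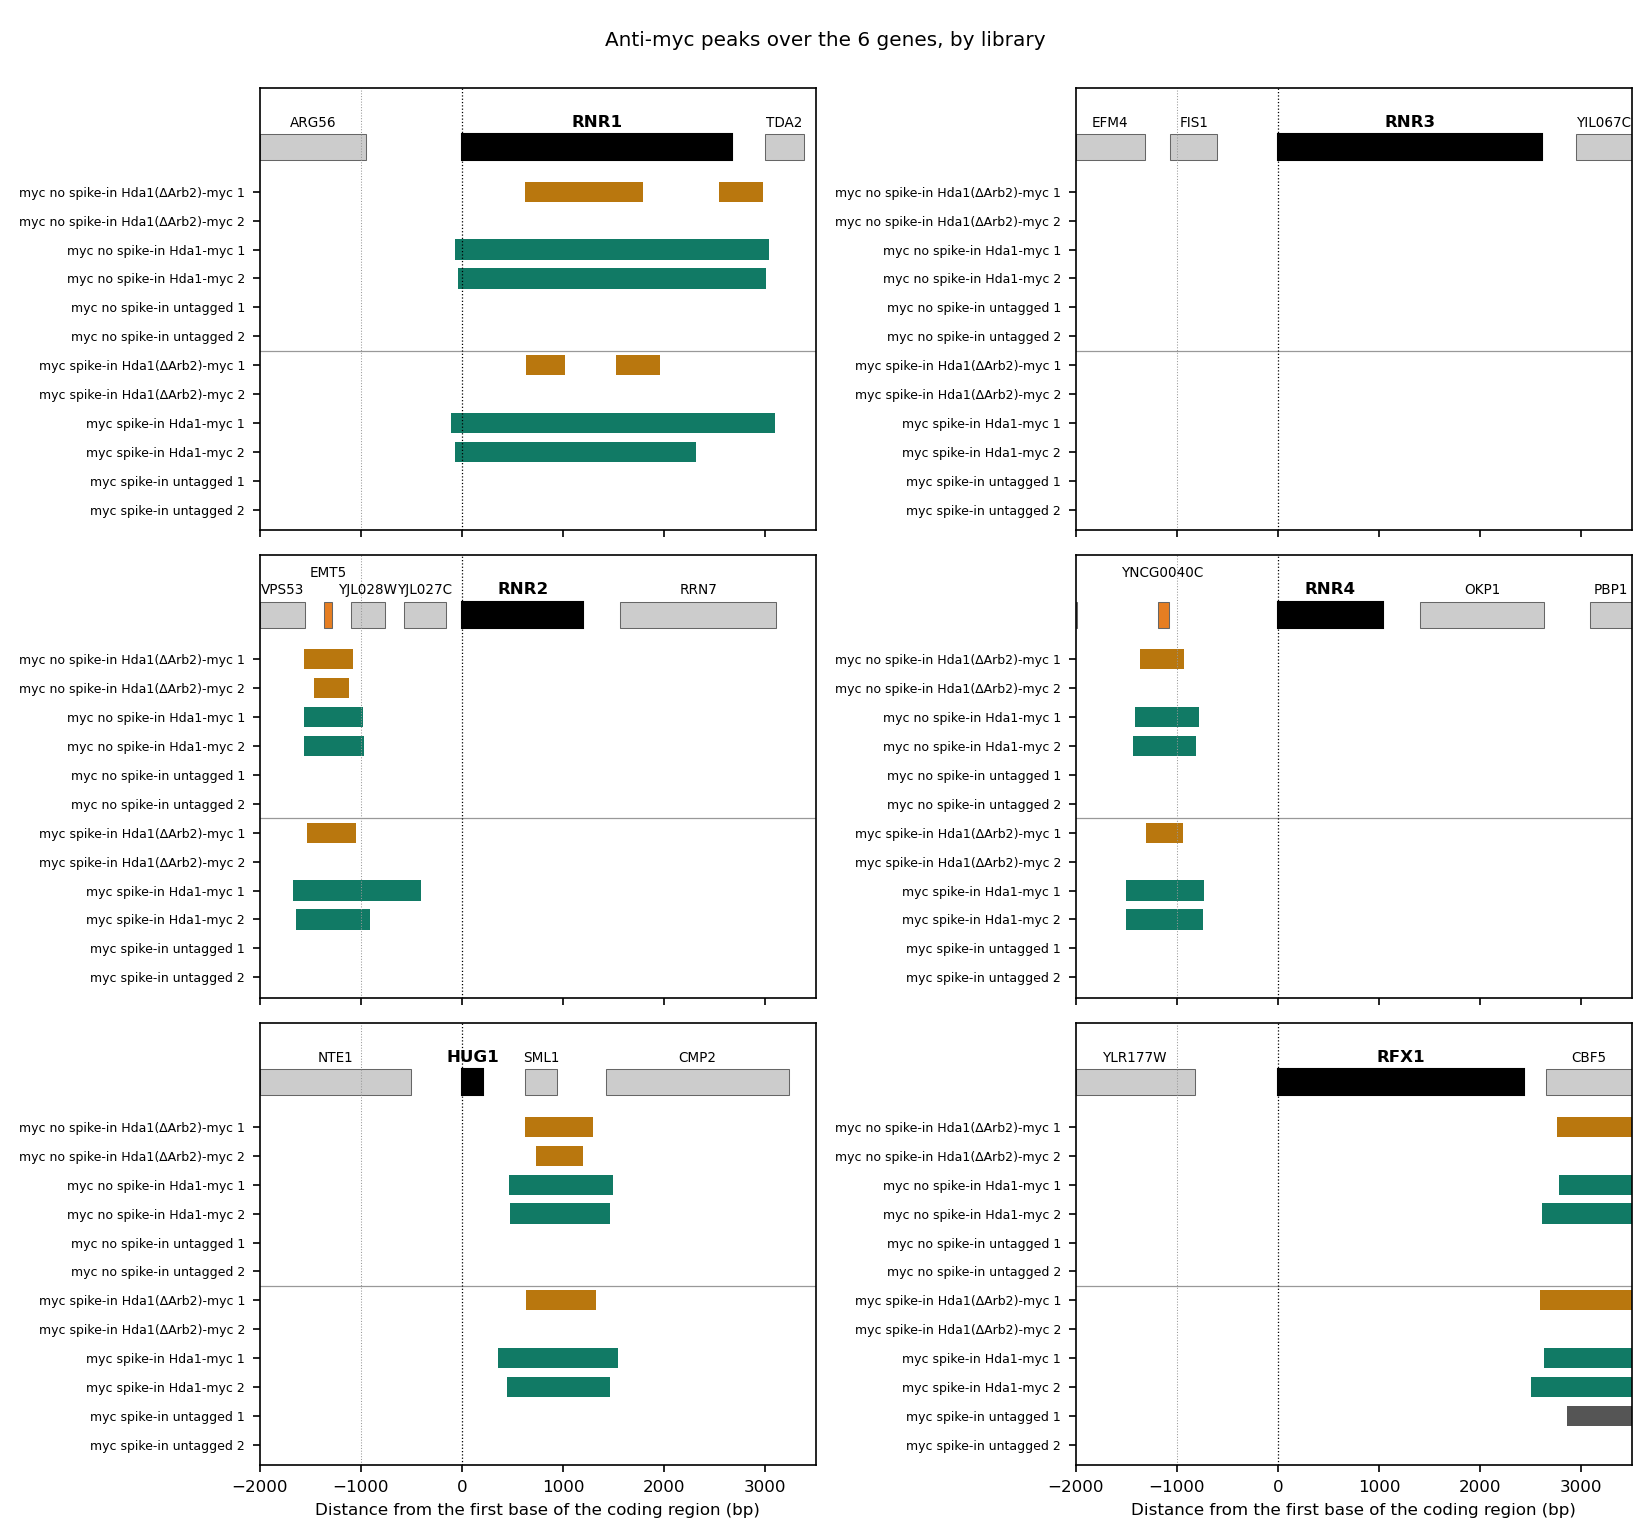
Anti-myc peaks in each of the 12 libraries over the 6 genes, against the distance in bp from the first base of the coding region, in the direction of transcription. Bars are called peaks in Hda1(∆Arb2)-myc (ochre), Hda1-myc (green) and untagged cells (dark gray), black boxes the genes, gray boxes neighbouring coding regions and orange boxes tRNA genes. Hda1-myc peaks span *RNR1* and stand on the tRNA genes upstream of *RNR2* and *RNR4*, and none stands over the stretch drawn for *RNR3*.

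Hda1-myc peaks were called over *RNR1* and over none of the other 5 coding regions. Coverage of *RNR1* was 100% and 100% in Hda1-myc cells without spike-in and 100% and 86.6% with it, against 0% in all 4 libraries of untagged cells. *RNR1* was thus gained over untagged cells, 1 of the 6 genes in each set, where 10% of all genes were gained without spike-in and 12.5% with it. It was also the only 1 of the 6 with at least 50% of its coding region covered in both libraries, where 7.15% of all genes were bound in this sense without spike-in and 8.53% with it. The peaks were broad, at 298886–301984 and 298907–301950 of chromosome V without spike-in and 298843–302040 and 298878–301259 with it. They ranked low by fold enrichment, at percentiles 28.3, 37.5, 28.9 and 14.7 of their own library, and with peaks at q of at most 1e-05 the gain in the spike-in set was not called.

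Without the Arb2 domain, coverage of *RNR1* was lower. It was 48.6% and 0% in Hda1(∆Arb2)-myc cells, against 100% and 100% in Hda1-myc cells without spike-in, and 30.7% and 0%, against 100% and 86.6%, with it. *RNR1* was lost in both sets, where 7.38% of all genes were lost without spike-in and 9.61% with it, and the mean differences were −75.7 and −78.0 points. With library 2 of Hda1(∆Arb2)-myc left out, the loss was still called in both sets, which the rule fixes in advance. It was not called in the spike-in set with peaks at q of at most 1e-05, and in neither set when each library was cut to an equal covered length, of 237124 bp without spike-in and 49817 bp with it. Against untagged cells none of the 6 coding regions was gained in Hda1(∆Arb2)-myc cells, where 3.18% of all genes were gained without spike-in and 0.3% with it, and without library 2 *RNR1* was gained in both sets.

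Upstream, Hda1-myc peaks over 1000 bp were gained over untagged cells at 1 of the 6 genes, *RNR4*, in both sets, where 15.1% of all genes were gained without spike-in and 17.1% with it. They covered 22.0% and 19.5% of the window without spike-in and 26.5% and 26% with it. In Hda1(∆Arb2)-myc cells the window of *RNR4* was covered to 7.20% and 0%, and 5.80% and 0%, a loss from Hda1-myc cells in both sets, where 12.2% of all genes were lost without spike-in and 15.9% with it. Against untagged cells none of the 6 upstream windows was gained in Hda1(∆Arb2)-myc cells (5.01% of all genes without spike-in and 0.333% with it). The summit of the *RNR4* peak lay 1098 to 1116 bp upstream, on a tRNA gene at 1190 to 1077 bp, and within 400 bp of *RNR4* there was no Hda1-myc peak.

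A like peak stood upstream of *RNR2*, with its summit 1284 to 1307 bp away, near the tRNA gene *EMT5* at 1361 to 1289 bp. Most of it lay outside the 1000 bp window, of which Hda1-myc peaks covered 2.6% and 3.6% without spike-in and 59.2% and 9.50% with it. Hda1-myc peaks lay over 270 of the 275 tRNA genes in each of the 4 Hda1-myc libraries, and over 266 and 186 without spike-in and 233 and 5 with it in the Hda1(∆Arb2)-myc libraries. In untagged cells anti-myc peaks lay over 0 and 0 without spike-in and 1 and 0 with it. The peaks upstream of *RNR2* and *RNR4* were therefore at places where nearly every gene of that class had one.

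*RNR3*, *HUG1* and *RFX1* had no Hda1-myc peak over the coding region or the 1000 bp upstream in any of the 4 libraries, as was the case for 4071 genes (67.8%). Neither the gains of acetylation at *RNR3* in *hda1∆* nor those at *HUG1* and *RFX1* in *tup1∆* thus had a called Hda1-myc peak at the same place, and within *RNR2*, where H3 acetylation was gained in *hda1∆*, there was none either. *RNR1* was under Hda1-myc peaks over its whole length in 3 of 4 libraries and had no acetylation called gained or lost. Its acetylation peaks began no earlier than position 2101, so a loss could have been called over the end of the gene only. How Hda1-myc peaks relate to the changes in acetylation was not tested. Near *HUG1*, an Hda1-myc peak covered *SML1* to 100% in all 4 libraries, against 0% in untagged cells, and began at least 360 bp after the start of *HUG1*. Near the 3′ end of *RFX1*, an Hda1-myc peak stood over *CBF5*, the gene of a pseudouridine synthase, where library 1 of the untagged cells in the spike-in set also had a peak.

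**Figure D4:**
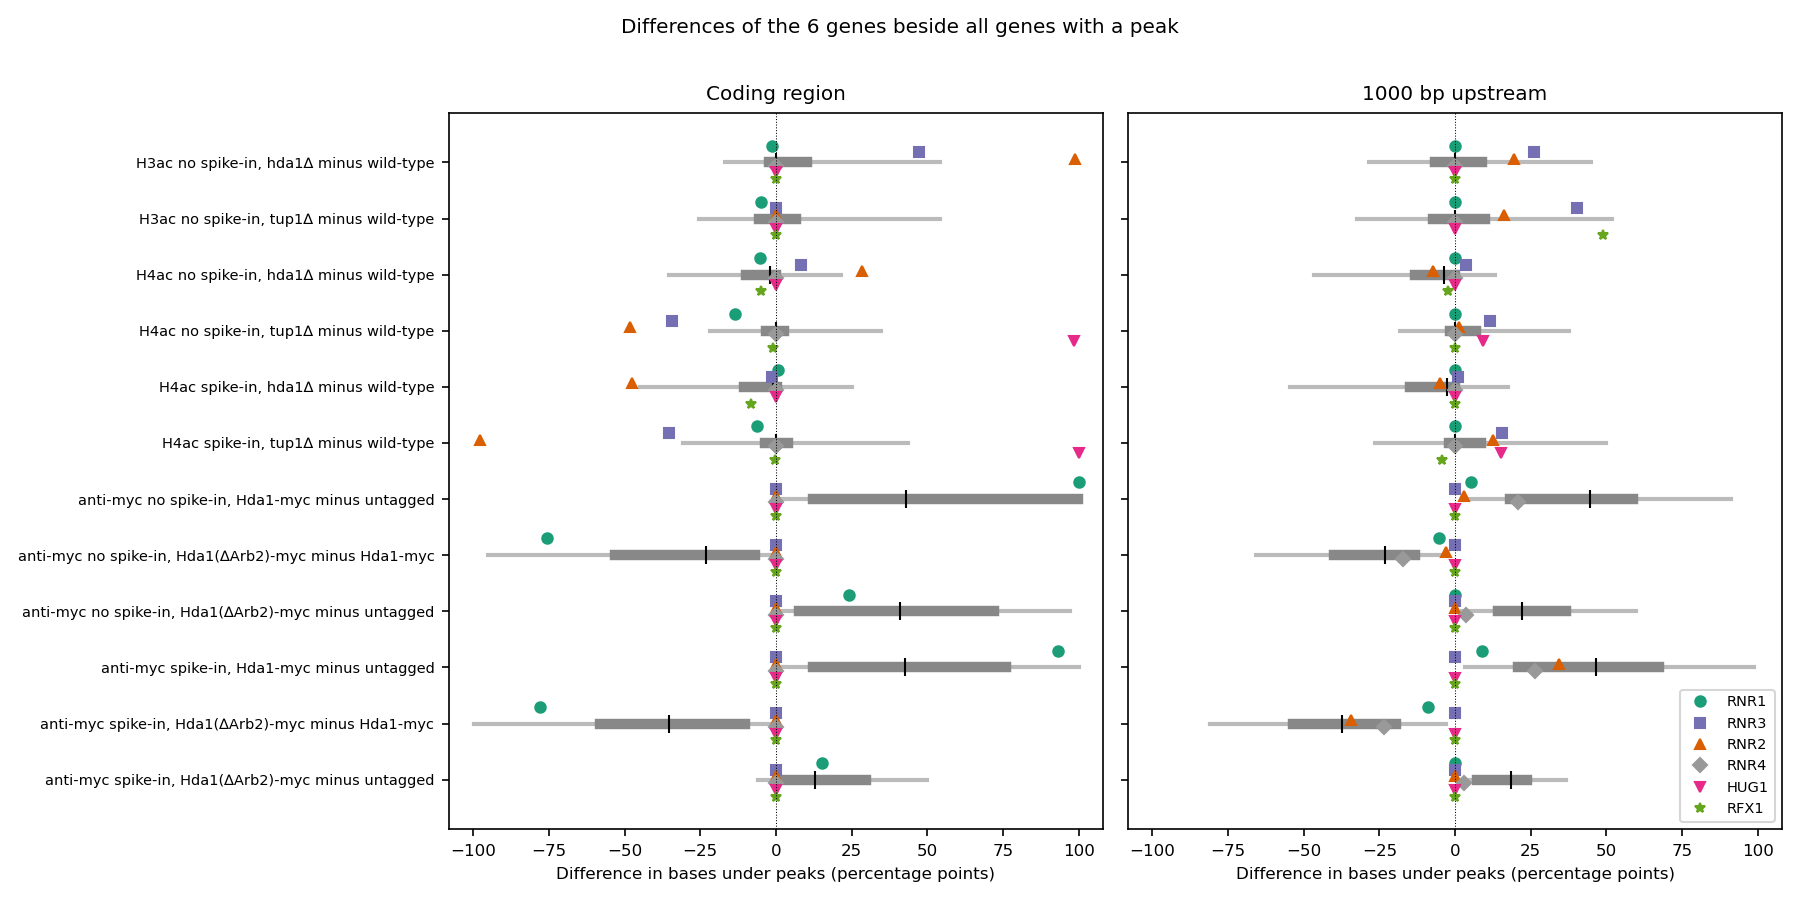
Difference in peak coverage of the 6 genes in each comparison, in percentage points, for the coding region (left) and the 1000 bp upstream (right). Symbols are the genes, and gray lines give the 5th to 95th percentile (thin), the 25th to 75th (thick) and the median (tick) of all genes with a peak in at least 1 of the 4 libraries compared. *HUG1* lies at 98.3 and 100 points and *RNR2* at −48.1 and −97.6 points in *tup1∆* minus wild-type H4 acetylation of the coding region.

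Related genes were taken in 4 lists, of 11 genes of the kinases, inhibitors and localisation factors of the reductase, 9 of the Tup1–Cyc8 corepressor, its recruiters and Hda1C, 9 of other nucleotide synthesis, and 13 others known to be induced by DNA damage. For H3 acetylation of the coding region, 4 of the 42 were gained and 1 lost in *hda1∆*, and 3 were gained and 2 lost in *tup1∆*. For H4 acetylation, 4 were gained in *tup1∆* in each set, with 1 lost without spike-in and 2 with it, while in *hda1∆* 1 was gained and 4 lost without spike-in, and 2 gained and 5 lost with it. The shares gained or lost for acetylation over the coding region were thus 2.38% to 11.9% of the 42, against 2.65% to 12% of all genes. Hda1-myc was gained over untagged cells in the coding region of 4 of the 42 without spike-in, 9.52%, against 10% of all genes, and of 7 with it, 16.7%, against 12.5%.

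*DDR2*, a stress gene induced by DNA damage, was gained most often among them. Its coding region was covered to 100% and 100% for H3 acetylation in *hda1∆*, and in *tup1∆* also, against 0% and 0% in wild-type cells. For H4 acetylation it was covered to 100% in all 4 *tup1∆* libraries, against 0% in the wild-type libraries of both sets. H4 acetylation of *DDR2* was also gained in *hda1∆* without spike-in, at 83.3% and 88.7%, and this gain was not called with spike-in. *DDR2* thus had called peaks of both marks over its whole coding region in *tup1∆*, whereas *HUG1* had called peaks of H4 acetylation alone. *RAD16*, a gene of nucleotide excision repair, was gained in *tup1∆* at 16.9% and 19.1% for H3 acetylation, at 21.6% and 19.9% for H4 acetylation without spike-in, and at 20.9% and 22.6% with it, against 0% in wild-type cells.

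Among regulators of the reductase, the list of 11 genes of kinases, inhibitors and localisation factors showed *WTM2* gained in *tup1∆* for H3 and H4 acetylation. *WTM2* is the neighbour and paralog of *WTM1*, whose product holds the small subunits in the nucleus. H4 acetylation of *WTM2* was 93.4% and 97.9% in *tup1∆*, against 44.4% and 75.9% in wild-type cells without spike-in, and 100% and 100%, against 84.3% and 64.4%, with it. *WTM1* was lost in *tup1∆* without spike-in, at 0% and 0% against 41.6% and 33.0% in wild-type cells, and had no peak in wild-type cells with spike-in. Upstream of *PLM2*, a damage-induced transcription factor gene, H4 acetylation with spike-in was 50.7% and 49.5% in *hda1∆* and 62.2% and 53.9% in *tup1∆*, against 0% and 0% in wild-type cells. Without spike-in it was 50.7% and 50.6% in *hda1∆* and 43.4% and 43.5% in *tup1∆*, against 24.1% and 0% in wild-type cells.

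Of the genes of nucleotide synthesis, *DFR1*, which encodes dihydrofolate reductase, was gained in *tup1∆* for H4 acetylation over the coding region, at 99.1% and 84.0% in the spike-in set, against 0% and 0% in wild-type cells. Without spike-in it was also gained, at 84.0% and 85.1% in *tup1∆*, against 0% and 48.0% in wild-type cells. *CDC21*, the gene of thymidylate synthase, was lost upstream in *hda1∆* for H4 acetylation, at 0% and 0% in both sets, against 82.5% and 58.2% in wild-type cells without spike-in and 88.4% and 69.1% with it. Hda1-myc covered the coding region of *ADK1*, which encodes adenylate kinase, to 99.1% and 100% without spike-in and 100% and 96.6% with it, against 0% in untagged cells. Hda1(∆Arb2)-myc did not cover it in any library, so that *ADK1*, like *RNR1*, was lost in both sets.

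Genes with the profile most like each of the 6 were found by the mean absolute difference in coding region coverage over the 18 acetylation libraries. *HUG1* was nearest to *PAU13* (0.111 points), *GAT4* (0.309) and *PAU2* (1.14). *PAU13* and *PAU2* belong to a family of near-identical cell wall genes, between whose copies reads could have been divided, and *GAT4* encodes a GATA family zinc finger protein. *RNR3* was nearest to *HXT5* (6.24 points), a hexose transporter gene, then YNL195C (7.01) and *CSR2* (7.34). *RNR2* had no close match, the nearest being *TIR1* (10.1 points), *IMA3* (10.4) and *FMP48* (10.5). *RNR1* was nearest to *APL5* (3.88), *ARN2* (4.42) and *RPH1* (4.61), *RFX1* to *MDM38* (1.88), *DBP6* (2.05) and *GLO3* (2.37), and *RNR4* had 629 equal matches, all without a peak.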

How the data were processed

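ChIP-seq peak lists of 30 of the 54 samples were used. The other 24, total H3 or input libraries, were not analysed here. According to the methods and the submitters' processing notes, the authors aligned reads with Bowtie2 2.2.5, filtered them with Picard 2.6 and called peaks in each library with MACS2 2.1.0 at a q of 0.05. The largest q of any peak was 0.00987 in the lists without spike-in and 0.0474 in those with it. The shortest peak was 230 bp without spike-in and 363 bp with it. The sets may thus not have been called alike, and how this bears on differences between them was not tested. For each peak the deposited lists hold start, end and summit, a MACS2 score, a fold enrichment (a ratio to the control), and 2 columns of −log10 values, for the p-value and the q-value. Of these deposited columns, fold enrichment served to rank peaks within their own library and −log10 q-value for the stricter thresholds. No use was made of the score or the p-value. The spike-in scale is not in these columns.

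The notes name the build R64 (sacCer3) and the methods an older one, so the gene table of R64 was checked on the files. In the Hda1-myc libraries the median signed offset of peak summits from the centres of 275 tRNA genes was between −22 and 20.8 bp on each of the 16 chromosomes. Gene positions are those of the R64 table, and peak positions those of the lists, counted from 1. Strand was read from the systematic name.

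Coverage, calls and background shares were computed over all 6002 genes with Python 3.11.15, numpy 2.4.6 and pandas 2.3.3, and checked on simulated peaks. The 6 genes, the related lists and the rules were chosen with earlier results of these data known. Named genes are the 6, list genes that passed the call rule, and the 3 genes nearest in profile. Whether the 2 libraries of a group came from separate cultures is not stated in the labels. Alternatives were q thresholds, equal covered length, shifted gene positions, other windows, other margins, libraries left out and a replicate block. No sequence motif was searched.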

Additional observations from a re-analysis of the deposited data

Results flagged for a closer look

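At *RNR2* the difference of *hda1∆* from wild-type cells went opposite ways for H3 and H4 acetylation, with no overlap of the libraries, in 1 of the H4 acetylation sets for each window. Over the coding region every *hda1∆* library was above every wild-type library for H3 acetylation, by 99.0 points on average, and below every wild-type library for H4 acetylation in the spike-in set, by −47.5 points. Over the 1000 bp upstream, H3 acetylation was higher in *hda1∆* by 19.4 points, and H4 acetylation without spike-in was lower, by −7.30 points. The difference between the antibodies was not tested. Over the coding region without spike-in, the set that also holds H3 acetylation, H4 acetylation was 28.4 points higher in *hda1∆* with overlapping libraries, the same direction as H3 acetylation. The spike-in value at equal covered length, 50.1 points, also had that direction.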

How the results depend on the processing

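Of the 16 calls of acetylation at the 6 genes, 16 were kept with q of at most 0.001 or 1e-05, 14 at equal covered length, 13 and 14 with the genes moved 200 bp left or right, and 12 with a margin of 25 points. The call that turned round was *RNR2* over the coding region in *hda1∆* minus wild-type H4 acetylation with spike-in, at 50.1 points under equal covered length. Of the 8 anti-myc calls, 8 were kept at q of at most 0.001, 6 at 1e-05, 1 at equal covered length, which by construction cuts each library to the shortest list of its comparison, at 9626 to 40928 bp with untagged cells and 49817 to 237124 bp between the tagged strains, 4 and 8 with the genes moved, and 5 with a margin of 25 points. Of 7 upstream acetylation calls, 3 were kept within 400 bp and 4 outside other coding regions, and of 4 upstream anti-myc calls 0 and 4. The cause was not tested otherwise. With any gap over 0, 11 acetylation and 8 anti-myc calls were added. Other counts of genes called per comparison and window moved among 0, 1, 2 and 3.

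With 1 library left out, 9 acetylation and 6 anti-myc calls were added, and the count per comparison and window ranged between 0 and 4. Every call was kept in each of the 4 ways, which the rule fixes in advance, as leaving out a library cannot narrow a gap. Under the replicate block, only libraries with the same number were compared. No call was added, and each count stayed at 0, 1, 2 or 3. The 16 acetylation and 8 anti-myc calls were all kept, as they had to be, because the main rule already includes these pairs. The numbers were not shown to pair the libraries, as correlations of their deviations lay between −0.0255 and 0.0793 in all pairs of strains but Hda1(∆Arb2)-myc with untagged cells in the spike-in set, at 0.615. At 25% or any overlap in place of 50%, *RNR1* was still the 1 gene of the 6 bound by Hda1-myc. Depth is unknown, so a missing peak cannot be told apart from a peak too weak to be called.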
